A study of Mus musculus with 17 samples.

Results

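The genes described here are 44 genes of cell division, chosen by symbol from the deposited table of gene counts, which holds 55421 genes. They comprise 11 genes of replication licensing and the replication fork, 4 of nucleotide supply, 5 of S phase entry and its checkpoint, 10 mitotic cyclins, kinases and their partners, 6 of the centromere and spindle checkpoint, and 8 of the spindle, cytokinesis and the chromosome. Total RNA was sequenced from cultures of lung fibroblasts of 17 mice, 1 library per mouse, and the question addressed was whether RNA of dividing cells follows the fibroblast or the macrophage content of these cultures. All mice carried 2 floxed Ephb4 alleles and a tamoxifen-inducible Cre driven by Col1a2, so that deletion is directed to Col1a2-expressing cells and not to every cell of a culture. The sample labels name the line Ephb4 f/f;Col1a2-CreERT2, whereas the paper writes CreERT. At 4 weeks of age, Ephb4 CKO mice received 4-hydroxytamoxifen (1 mg per day for 5 days) and Ephb4 control mice received corn oil. At 6 weeks they received bleomycin (1.2 U/kg), which injures the lung, or PBS, and lungs were collected 14 days later. The groups were Ephb4 control mice given PBS (control PBS, n = 4) or bleomycin (control bleomycin, n = 4) and Ephb4 CKO mice given PBS (CKO PBS, n = 5) or bleomycin (CKO bleomycin, n = 4). Cells were grown in serum-containing medium and passaged once before RNA was extracted, so the values describe cells in culture and not the lung itself.

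A dividing cell first loads the Mcm helicase onto its replication origins, a step for which Cdc6 and Cdt1 are the loaders, then fires the origins and copies its DNA with Pcna as the sliding clamp, using nucleotides that ribonucleotide reductase (Rrm1, Rrm2), thymidylate synthase (Tyms) and thymidine kinase (Tk1) supply. E2F factors drive the genes of this phase, and FoxM1 with the MuvB complex drives the later mitotic genes, whose products build the spindle, check its attachment and are then destroyed through Cdc20 and the anaphase promoting complex. Resting cells hold little of this RNA. In lung cultures, fibroblasts divide in serum and spread over the dish, whereas macrophages adhere firmly and depend on growth factors such as CSF1 to survive and divide.

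The promoters of the members whose results are described most closely are shown first, because the 2 phases of the cycle are known to be read through different short promoter words. The words searched on both strands were the CHR element (TTTGAA or TTTAAA), the CCAAT box (CCAAT) and an E2F word (TTTCCCGC, TTTCGCGC, TTTGCCGC or TTTGGCGC), in windows from 250 bases before to 50 bases after each RefSeq gene start on GRCm38.p6. Of the 44 members, 36 had a window, and with alternative starts there were 39 windows. Gins2, Mcm4, Ccne2, Ccna2, Aurkb, Foxm1, Kif20a and Tpx2 had none. The CHR words stood in 18 of 20 windows (90%) of the mitotic, centromere and spindle members, in 7 of 19 windows (36.8%) of the replication, nucleotide and S phase members, and in 27.6% of all 32851 windows. The E2F words stood in 5% of the mitotic windows, 36.8% of the replication windows and 2.26% of all windows. CHR and CCAAT words stood together in 85%, 26.3% and 10.7%, respectively. Below are the 150 bases before the start of 4 members, 5′ to 3′ along the gene, with these words in capitals on either strand and overlapping words run together. Cdc20 (chr4:118437344-118437493, reverse strand) and Cdk1 (chr10:69352913-69353062, reverse strand) stand for the mitotic genes, and Mcm6 (chr1:128359706-128359855, reverse strand) for the helicase. Tyms (chr5:30073626-30073775, reverse strand) is shown because it had the smallest p of the members in both comparisons with control bleomycin mice, and none of these words lies in its 150 bases.
Cdc20: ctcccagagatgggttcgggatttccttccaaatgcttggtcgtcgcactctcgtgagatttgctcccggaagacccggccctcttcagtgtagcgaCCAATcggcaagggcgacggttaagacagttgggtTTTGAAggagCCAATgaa
Cdk1: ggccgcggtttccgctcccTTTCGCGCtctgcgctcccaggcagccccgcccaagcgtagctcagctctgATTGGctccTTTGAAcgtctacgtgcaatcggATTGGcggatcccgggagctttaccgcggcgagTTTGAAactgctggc
Mcm6: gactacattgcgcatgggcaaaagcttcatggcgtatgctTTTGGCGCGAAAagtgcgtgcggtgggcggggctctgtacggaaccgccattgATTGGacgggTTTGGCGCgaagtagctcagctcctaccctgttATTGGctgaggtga
Tyms: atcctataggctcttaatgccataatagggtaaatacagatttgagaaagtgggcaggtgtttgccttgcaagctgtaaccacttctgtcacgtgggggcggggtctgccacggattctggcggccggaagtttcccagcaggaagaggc
A match of letters does not show that a factor binds there.

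Total counts per library ranged from 66540022 to 120554468 (median 93075927), and genes over 10 CPM (counts scaled to a common library total) in 2 or more libraries were kept, which left 10481 genes and 43 of the 44 members. Chek1, the checkpoint kinase of S phase, was the member not kept, at 0.408 to 8.28 CPM. No member was at 0 in any library. The mean log2 CPM of the 15 fibroblast marker genes kept (of 16 listed, among them Col1a1, Col3a1, Dcn and Pdgfra), called here the fibroblast score, was 3.39 ± 3.37 (SD, n = 4) in control PBS mice, 8.51 ± 0.41 (SD, n = 4) in control bleomycin mice, 3.23 ± 1.90 (SD, n = 5) in CKO PBS mice and 4.26 ± 2.56 (SD, n = 4) in CKO bleomycin mice. The summed level of the 19 macrophage markers was between 11594 and 48716 CPM outside the control bleomycin group and between 1589 and 21744 CPM in it, so cultures labelled as fibroblasts held much macrophage RNA. In 3 libraries (control bleomycin mouse 2 and CKO bleomycin mice 1 and 2) the sex-linked genes went against the labelled sex. Ephb4, the targeted gene, was 24.5, 4.06, 33.9 and 2.35 CPM and 66.01, 13.3, 35.8 and 41.0 CPM in control PBS and control bleomycin mice, and 7.81, 23.9, 9.09, 4.06 and 4.10 CPM and 14.2, 9.66, 10.3 and 5.00 CPM in CKO mice. Its log2 fold change for CKO against control after bleomycin was -2.00 (SE 0.79; adjusted p 0.220, edgeR's quasi-likelihood test), and its groups overlapped. In bulk RNA, fewer dividing cells and less of this RNA per cell cannot be told apart.

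RNA of the cell cycle genes differed widely between mice of the same group. The median SD over the 17 libraries was 1.13 on the log2 scale for the 43 members and 0.44 for all genes tested. The mitotic members varied most, with a median SD of 1.41 for cyclins, kinases and partners, 1.51 for centromere and checkpoint genes and 1.42 for spindle and chromosome genes, against 0.73 for licensing and fork genes. The lowest and highest libraries differed 82.1-fold for Cenpe, a kinetochore motor, 41.1-fold for Cdc20, the activator of the anaphase promoting complex, and 39.0-fold for Prc1, which bundles microtubules of the central spindle. They differed 2.52-fold for Pcna and 2.41-fold for E2f1, a transcription factor of S phase entry. The members' summed level ran from 333 CPM in CKO PBS mouse 1 to 2299 CPM in CKO PBS mouse 3, which are 2 mice of the same group.

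**Figure D1:**
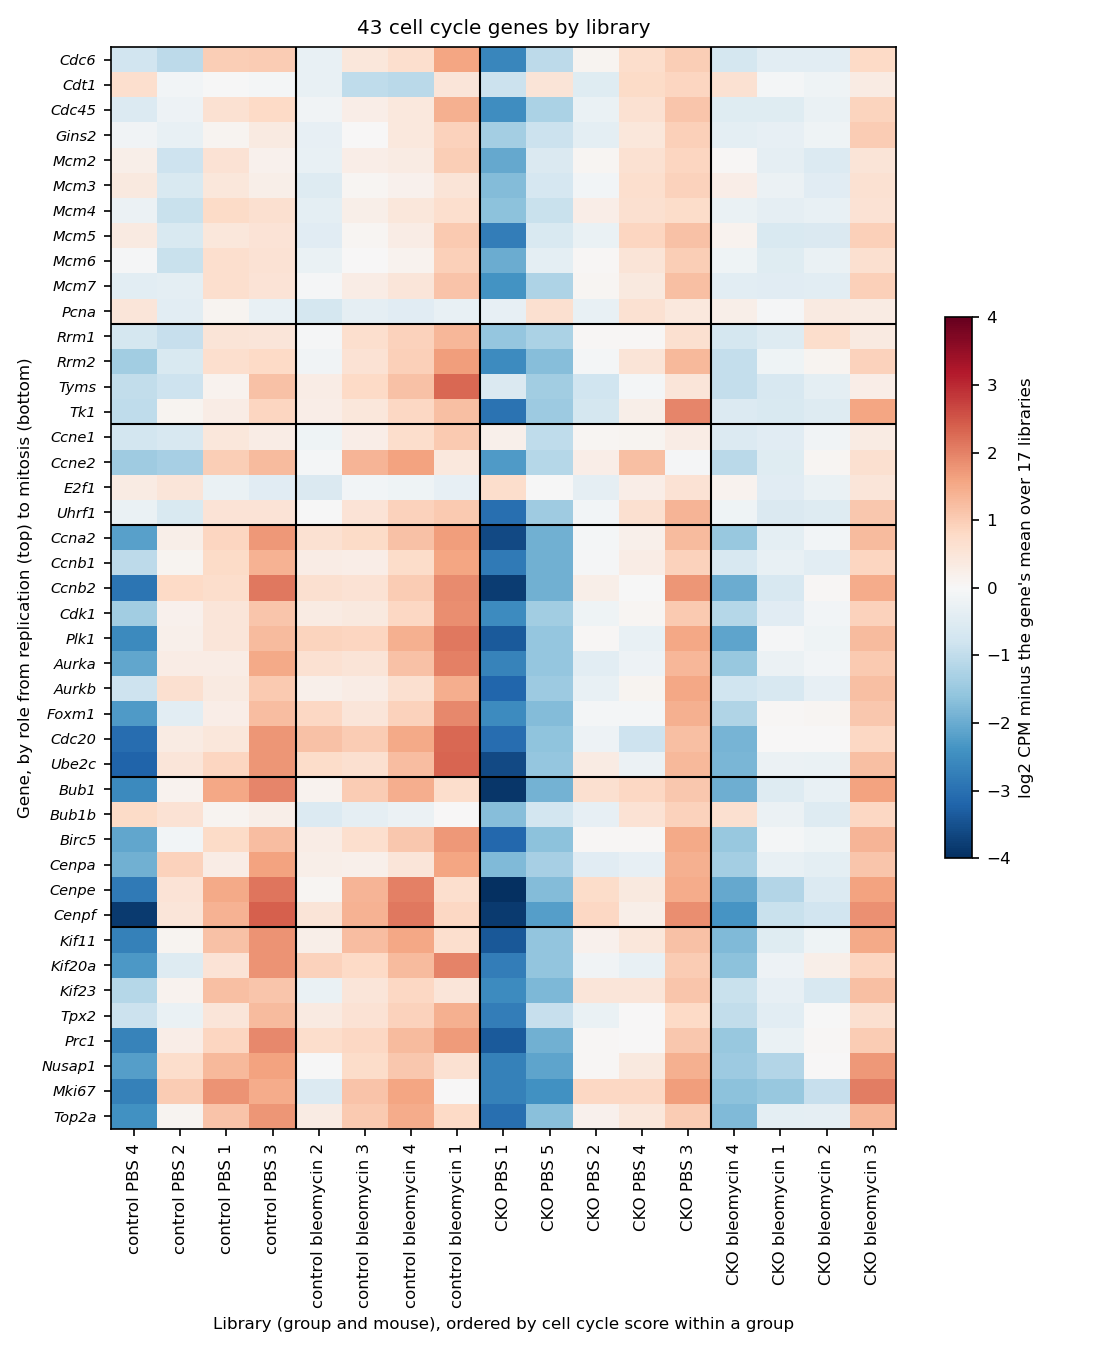
Heat map of the 43 cell cycle genes kept (rows, by role) in the 17 libraries (columns, by group), coloured by each gene's log2 CPM minus its mean over all libraries. Columns that are low or high for nearly all mitotic genes occur within each PBS group, with CKO PBS mouse 1 the lowest, and Pcna, E2f1, Cdt1 and Bub1b do not follow the pattern of the others.

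The members rose and fell together across libraries. The Pearson r of a member with the mean of the other members was at least 0.6 for 39 of 43 members (0.65 to 0.99, n = 17 libraries). These are values of genes in the same libraries, which share depth and cell content, and are given as a description. The 4 below that were Bub1b (0.48), a spindle checkpoint kinase, Cdt1 (0.04), the licensing factor, Pcna (-0.18) and E2f1 (-0.33). Mean scores of the mitotic and the centromere genes had an r of 0.97, and those of the licensing and the mitotic genes 0.76. Per kilobase of exon, Pcna had the highest median level of the members (51.0 CPM per kb), followed by Mcm3 (14.6) and Mki67 (14.3), and Cenpf the lowest (0.62).

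The other members are given by their range over the 17 libraries. The origin loader Cdc6 ran from 1.30 to 23.8 CPM and its partner Cdt1 from 6.80 to 26.1 CPM. Cdc45 (1.77 to 26.5 CPM) and Gins2 (3.69 to 18.9 CPM) complete the active helicase, whose subunits Mcm2, Mcm3, Mcm4, Mcm6 and Mcm7 had their lowest value, 6.94 to 16.4 CPM, in the same library, CKO PBS mouse 1. Rrm1, the large subunit of ribonucleotide reductase, ran from 23.4 to 170.2 CPM and Tk1 from 1.66 to 50.04 CPM. Ccne2, cyclin E2, ran from 1.38 to 20.4 CPM, and Uhrf1, which carries DNA methylation through replication, from 3.13 to 64.7 CPM. The mitotic genes went lower. The cyclins Ccna2 and Ccnb2 (lowest 1.93 and 0.667 CPM), the mitotic kinases Plk1, Aurka and Aurkb (0.630, 1.63 and 1.09 CPM), the ubiquitin enzyme Ube2c (0.840 CPM), the checkpoint kinase Bub1 (0.630 CPM), survivin (Birc5, 1.12 CPM) and Cenpe (0.568 CPM) were all lowest in CKO PBS mouse 1. So were the spindle motors Kif11 and Kif23 (1.40 and 2.42 CPM) and the spindle proteins Tpx2 and Nusap1 (4.92 and 1.53 CPM), whereas Cenpa, the centromeric histone, and Cenpf, a kinetochore protein, were lowest in control PBS mouse 4 (3.03 and 0.467 CPM). In all, 36 of 43 members were lowest in CKO PBS mouse 1. The highest value lay in control bleomycin mouse 1 for 17 members, in control PBS mouse 3 for 9, in CKO PBS mouse 3 for 9 and in CKO bleomycin mouse 3 for 4, so high libraries occurred in every group.

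Mki67, a coat protein of mitotic chromosomes and the usual histological marker of cycling cells, lies on chromosome 7 of GRCm38 (135689784 to 135716361, reverse strand). Its level was 285, 166, 229 and 12.6 CPM in control PBS mice 1 to 4 and 82.4, 56.3, 181 and 243 CPM in those given bleomycin. It was 12.5, 144, 257, 144 and 15.3 CPM in CKO PBS mice 1 to 5 and 28.6, 42.6, 338 and 25.8 CPM in those given bleomycin. Every group thus held both high and low libraries, and the spread was narrowest among the control bleomycin mice. The log2 fold change was -0.30 (SE 1.06) for bleomycin against PBS in control mice and -0.37 (SE 1.06) for CKO against control after bleomycin, and neither passed (adjusted p 0.907 and 0.851, by the quasi-likelihood test of edgeR with Benjamini-Hochberg adjustment).

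Top2a, the topoisomerase that untangles replicated chromosomes (chromosome 11, 98992943 to 99024189, reverse strand), was 159, 78.6, 251 and 13.6 CPM in control PBS mice and 128, 91.7, 151 and 206 CPM in those given bleomycin. In CKO mice it was 8.98, 82.0, 147, 100.02 and 22.7 CPM after PBS and 55.4, 57.4, 183 and 21.7 CPM after bleomycin. The lowest library of each group was the same mouse as for Mki67, and the groups overlapped. Its log2 fold change for CKO against control after bleomycin was -0.86 (SE 0.85), with adjusted p 0.549 by edgeR's quasi-likelihood test.

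Among the mitotic regulators, Cdk1, the kinase that starts mitosis, was 37.2, 29.6, 56.6 and 9.99 CPM in control PBS mice and 95.4, 33.0, 34.7 and 47.4 CPM in those given bleomycin. In CKO mice Cdk1 was 4.66, 23.5, 54.1, 28.1 and 10.0 CPM after PBS and 19.2, 24.5, 49.7 and 11.9 CPM after bleomycin. Control bleomycin mouse 1 was the highest library, and the other 3 of its group lay within the range of the PBS mice. Ccnb1, cyclin B1, its partner, was 47.4, 29.7, 72.4 and 13.5 CPM and 82.5, 34.2, 33.2 and 46.7 CPM in control PBS and control bleomycin mice. Ccnb1 was 3.88, 27.2, 53.03, 33.9 and 7.39 CPM and 22.5, 21.0, 50.8 and 17.7 CPM in the corresponding CKO mice. A gene named as a Ccnb1 pseudogene is annotated, so its counts could include reads shared with that copy. Foxm1, the transcription factor of the mitotic genes, was 8.84, 5.43, 17.3 and 1.51 CPM and 27.6, 13.0, 10.2 and 13.7 CPM in control PBS and control bleomycin mice, and 1.27, 6.86, 19.5, 6.95 and 2.21 CPM and 7.50, 7.78, 15.5 and 3.18 CPM in CKO mice. The log2 fold change for bleomycin against PBS in control mice was 0.66 (SE 0.67) for Cdk1 and 0.96 (SE 0.79) for Foxm1, and neither passed the test (adjusted p 0.641 and 0.558, edgeR's quasi-likelihood test). Exons of other genes overlap Foxm1, Top2a and Mcm7 on the same strand, and Ccnb2 too has an annotated pseudogene, so their counts carry that uncertainty.

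Cdc20 (chromosome 4, 118432901 to 118437352, reverse strand), whose promoter is printed above, was 13.1, 12.03, 32.2 and 1.14 CPM in control PBS mice and 46.7, 21.3, 19.0 and 27.0 CPM in those given bleomycin. In CKO mice Cdc20 was 1.14, 8.30, 21.7, 5.37 and 3.12 CPM after PBS and 9.59, 9.65, 16.9 and 2.61 CPM after bleomycin. After bleomycin every CKO library lay below every control library. The log2 fold change of CKO against control after bleomycin was -1.56 (SE 0.88), and it did not pass the test (adjusted p 0.302, edgeR's quasi-likelihood test). Kif20a, a kinesin of cytokinesis, was 30.3, 14.5, 71.9 and 4.16 CPM and 81.8, 38.7, 35.7 and 49.8 CPM in control PBS and control bleomycin mice, and 3.05, 18.5, 41.6, 16.8 and 6.95 CPM and 17.9, 23.98, 37.4 and 6.59 CPM in CKO mice. For Kif20a the bleomycin groups overlapped by 1 library, CKO bleomycin mouse 3, and the log2 fold change was -1.26 (SE 0.81; adjusted p 0.354, edgeR's quasi-likelihood test). Prc1 had the smallest p among the members for CKO against control after PBS. It was 43.8, 28.7, 91.5 and 3.76 CPM in control mice and 2.35, 25.1, 50.4, 24.5 and 6.35 CPM in CKO PBS mice, groups that overlapped widely. After bleomycin Prc1 was 78.4, 38.9, 42.5 and 58.1 CPM in control and 19.9, 25.0, 48.9 and 8.40 CPM in CKO mice.

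Of the nucleotide genes, Tyms (chromosome 5, 30058202 to 30073617, reverse strand), which makes thymidylate, differed most between groups. It was 17.1, 8.73, 34.9 and 7.90 CPM in control PBS mice and 77.1, 19.2, 27.4 and 34.9 CPM in those given bleomycin. In CKO mice Tyms was 10.5, 8.94, 21.99, 14.9 and 5.94 CPM after PBS and 10.00, 11.9, 18.9 and 8.08 CPM after bleomycin. After bleomycin the 4 CKO libraries all lay below the 4 control libraries, though the closest values were 18.9 and 19.2 CPM. The log2 fold change was -1.70 (SE 0.55; unadjusted p = 0.00722, adjusted p 0.207) for CKO against control after bleomycin and 1.21 (SE 0.54; unadjusted p = 0.0406, adjusted p 0.338) for bleomycin against PBS in control mice, by edgeR's quasi-likelihood test. Without control bleomycin mouse 1, the library highest in Tyms, these were -1.18 and 0.68. The 2 comparisons share the control bleomycin mice. Rrm2, the regulated subunit of ribonucleotide reductase, was 31.9, 13.1, 34.8 and 7.60 CPM and 62.9, 18.1, 29.7 and 39.0 CPM in control mice, and 3.51, 18.9, 48.8, 28.8 and 6.16 CPM and 17.5, 21.5, 37.9 and 10.3 CPM in CKO PBS and CKO bleomycin mice. Its log2 fold changes were -0.78 (SE 0.71) and 0.78 (SE 0.71) in the same comparisons, and neither passed the test. A Tyms pseudogene is annotated.

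Mcm5, a subunit of the helicase, was 47.8, 23.1, 51.7 and 44.9 CPM and 73.6, 26.0, 37.5 and 42.996 CPM in control PBS and control bleomycin mice, and 5.16, 29.3, 79.8, 63.6 and 22.9 CPM and 23.1, 23.5, 68.8 and 39.2 CPM in CKO mice. All 4 groups overlapped, and control PBS mouse 4, the lowest of its group for Cdk1, Ccnb1, Foxm1 and Cdc20, was not low for Mcm5. Pcna (chromosome 2, 132249162 to 132253314, reverse strand) went the other way. It was 134, 92.9, 103 and 175 CPM in control PBS mice, 102, 76.6, 98.5 and 91.5 CPM in those given bleomycin, 100.2, 102, 167, 192 and 193 CPM in CKO PBS mice and 122, 159, 155 and 148 CPM in those given bleomycin. After bleomycin every CKO library lay above every control library, with a log2 fold change of 0.67 (SE 0.25; unadjusted p = 0.0172, adjusted p 0.218, edgeR's quasi-likelihood test). Pcna also serves DNA repair, and annotated Pcna pseudogenes could share its reads.

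The S phase entry genes split. Ccne1, cyclin E1, which with its kinase starts replication, was 16.7, 7.81, 15.0 and 7.44 CPM and 25.5, 10.9, 14.6 and 19.8 CPM in control PBS and control bleomycin mice, and 14.2, 12.8, 15.2, 13.4 and 6.04 CPM and 8.92, 11.1, 15.3 and 8.40 CPM in CKO mice. For Ccne1 the log2 fold change was 0.59 (SE 0.35) for bleomycin against PBS in control mice and -0.70 (SE 0.35) for CKO against control after bleomycin, and neither passed the test. E2f1 was 10.5, 17.7, 9.16 and 16.02 CPM and 10.2, 8.48, 11.6 and 11.2 CPM in control mice, and 20.5, 9.87, 18.7, 15.4 and 12.6 CPM and 9.28, 10.5, 17.8 and 13.9 CPM in CKO mice. The library with the least Mki67, CKO PBS mouse 1, was the one with the most E2f1. Other libraries did not show this opposition. CKO bleomycin mouse 3, highest in Mki67, had 17.8 CPM of E2f1, and CKO PBS mouse 5, with little Mki67, had 12.6 CPM. Bub1b (chromosome 2, 118598211 to 118641591, forward strand) was 59.1, 82.0, 63.9 and 92.6 CPM in control PBS mice and 54.7, 37.2, 42.7 and 46.4 CPM in those given bleomycin, all 4 lower, with a log2 fold change of -0.72 (SE 0.44; adjusted p 0.449, edgeR's quasi-likelihood test). With the series of animal numbers as a covariate the Bub1b difference was 0.01. In CKO mice Bub1b was 16.7, 43.2, 102, 80.7 and 33.0 CPM after PBS and 46.3, 38.5, 96.9 and 85.3 CPM after bleomycin.

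In the comparisons of groups, no member passed an adjusted p of 0.05 in any of the 5 comparisons by edgeR's quasi-likelihood test, nor did any other gene, so that the background was 0%. At an unadjusted p under 0.05 there was 1 member of 43 for bleomycin against PBS in control mice (Tyms, higher), where the share of all genes was 14.3%, and there were 2 for CKO against control after bleomycin (Tyms, lower, and Pcna, higher), where it was 20.2%. There were 0 members for CKO against control after PBS (1.99% of all genes), bleomycin against PBS in CKO mice (0.964%) and the interaction term of genotype with bleomycin (3.46%). In the first 2 comparisons these were 2.33% and 4.65% of the members, below the share of all genes. Groups did not overlap for 1 member in the first comparison (Bub1b, lower), against 3.2% of all genes lower and 5.72% higher, and for 3 in the second (Cdc20 and Tyms, lower, and Pcna, higher), against 12.2% lower and 11% higher. The bleomycin groups hold the 3 libraries whose sex-linked genes went against the label, and whether their group labels hold was not tested. With DESeq2, Tyms passed the threshold for CKO against control after bleomycin in a fit that called 399 genes in all, and no member passed in the other comparisons.

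The direction of the differences was more uniform than their size. For bleomycin against PBS in control mice, 34 of 43 members had a higher fitted value and 9 a lower one, with a median log2 fold change of 0.31 (all genes -0.06). By role the median was 0.79 for nucleotide supply, 0.66 for mitotic cyclins and kinases (10 of 10 above 0, from 0.16 for Ccnb2 to 1.06 for Plk1), 0.56 for S phase entry, 0.21 for spindle genes, 0.10 for licensing and 0.07 for centromere genes. For CKO against control after bleomycin, 39 of 43 were lower and the median was -0.71 (all genes 0.01), with -0.98 for the mitotic cyclins and kinases (10 of 10 below 0), -0.81 for spindle genes, -0.76 for centromere genes, -0.75 for nucleotide supply, -0.62 for S phase entry and -0.28 for licensing. These 2 comparisons share 4 control libraries, and the members move together within a library, so the counts of members are not independent observations. For CKO against control after PBS the median was -0.37 (37 of 43 lower; all genes -0.02), and for bleomycin against PBS in CKO mice it was 0.04 (26 higher, 17 lower; all genes -0.03). The interaction of genotype and bleomycin had a median of -0.26 (33 of 43 lower; all genes -0.0030), from -1.24 for Tyms to 0.99 for Bub1b. The first median fell to 0.14 without control PBS mouse 4 and reached 0.77 without control PBS mouse 3, and the PBS genotype median was 0.03 without control PBS mouse 3. Without CKO PBS mouse 3 the interaction median turned to 0.23 and the median for bleomycin against PBS in CKO mice was 0.59, and without CKO bleomycin mouse 3 they were -0.88 and -0.44.

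**Figure D2:**
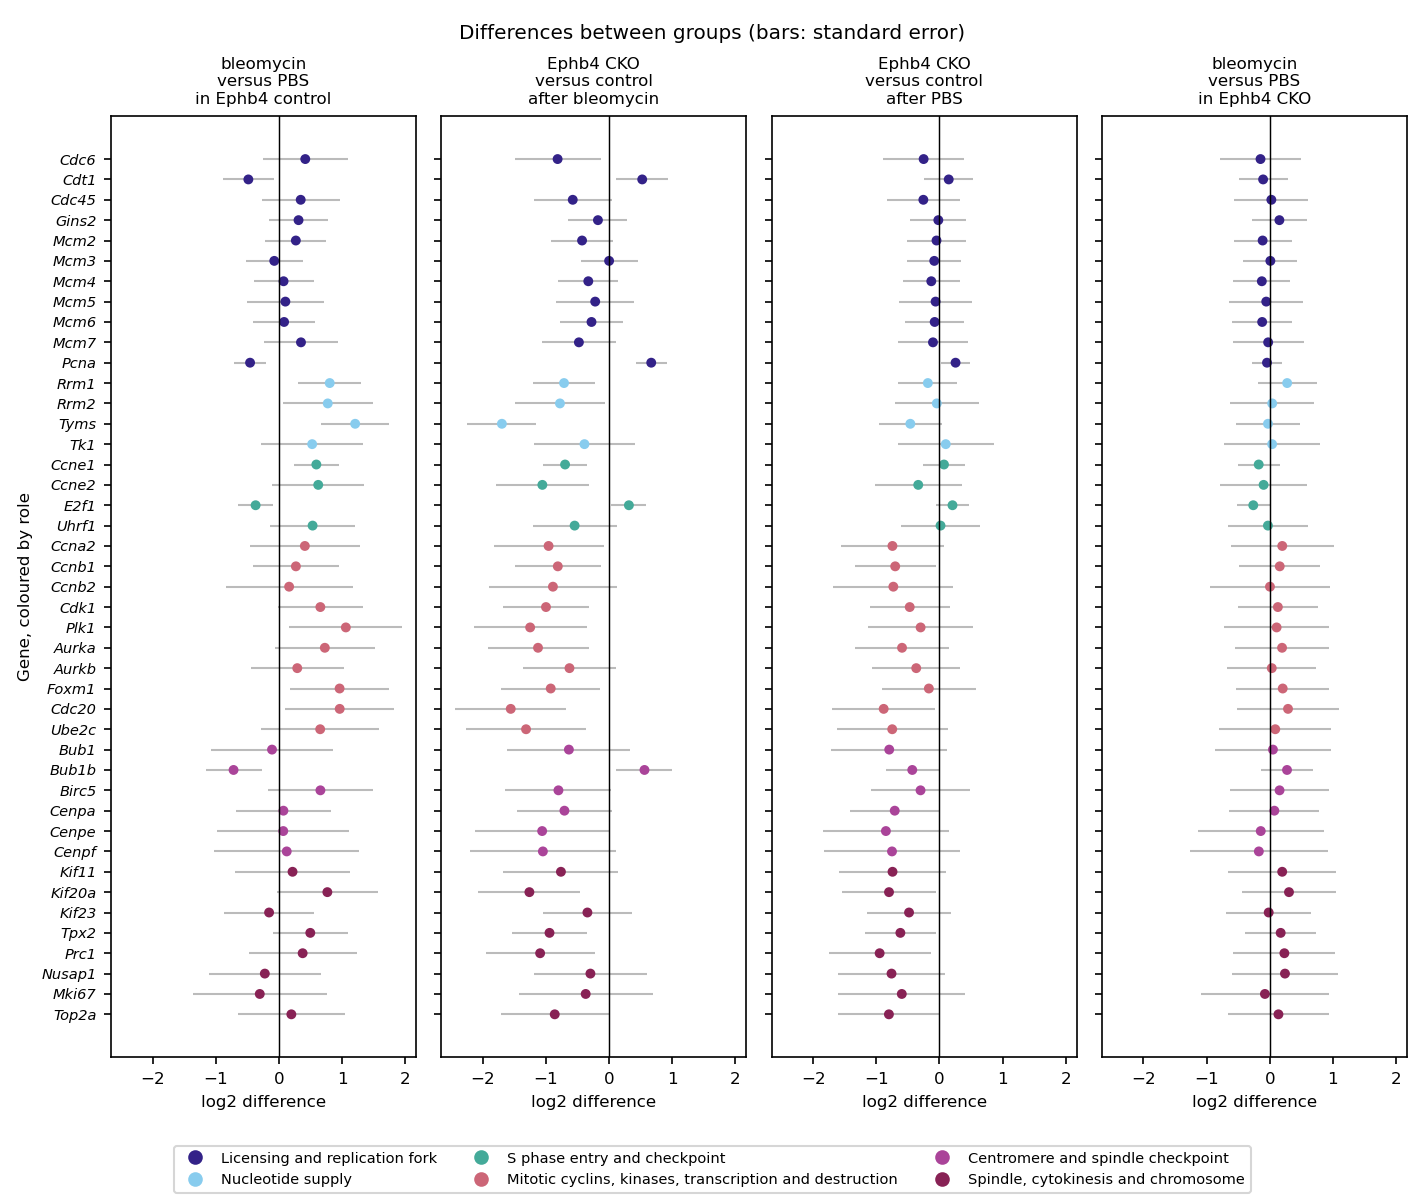
Log2 fold changes of the members (points, by role) in the 4 comparisons of 2 groups. Most points lie above 0 for bleomycin against PBS in control mice and below 0 for CKO against control after bleomycin, and no member passed an adjusted p of 0.05 in either.

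The mean log2 CPM over the 43 members, called the cell cycle score, was 4.29 ± 1.05 (SD, n = 4) in control PBS mice, 4.86 ± 0.46 (SD, n = 4) in those given bleomycin, 3.74 ± 1.40 (SD, n = 5) in CKO PBS mice and 4.05 ± 0.83 (SD, n = 4) in those given bleomycin. The group means lay closer together than the mice within a PBS group. Mitotic genes gave 3.66 ± 1.55, 4.66 ± 0.62, 2.90 ± 1.70 and 3.43 ± 1.05 in the same order of groups, and licensing genes gave 4.84 ± 0.49, 4.94 ± 0.50, 4.56 ± 1.09 and 4.75 ± 0.48. The control bleomycin mice were thus the most alike among themselves in mitotic RNA, as they also were in fibroblast score.

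**Figure D3:**
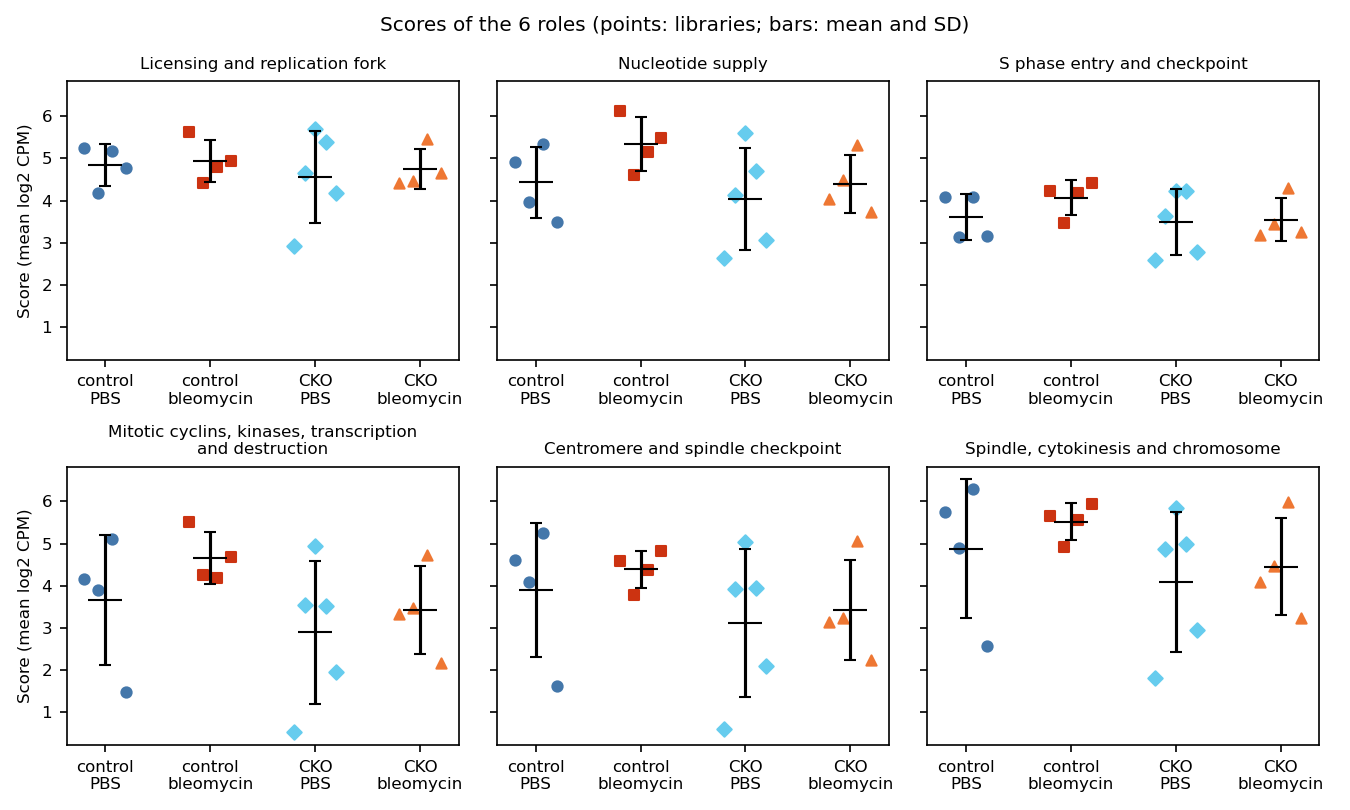
Mean log2 CPM of the members of each role in each library (points), by group, with the group mean and SD. Mitotic, centromere and spindle scores spread over several log2 units within the PBS groups and the CKO bleomycin group, and the licensing score spreads less.

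Across the 17 libraries, the cell cycle score went up with the fibroblast score and down with the macrophage score. Pearson's r was 0.56 with the fibroblast score (Spearman's rho 0.62) and -0.59 with the macrophage score (rho -0.77). For deviations from the group means r was 0.46 and -0.48, and without the 2 libraries farthest from the median of the marker score it was 0.54 and -0.64. Within the 2 series of animal numbers in the labels, 11 (8 libraries) and 12 (9 libraries, with all 4 control bleomycin mice), r was 0.72 and 0.54 with the fibroblast score and -0.72 and -0.66 with the macrophage score. The 2 marker scores had an r of -0.61 with each other. All of these scores come from the same libraries and are shares of the same total, so an r here is a description and no p is given. By role, r with the fibroblast score was 0.66 for nucleotide supply, 0.65 for mitotic, 0.56 for spindle, 0.52 for centromere, 0.46 for S phase entry and 0.25 for licensing genes. Single members ran from 0.78 for Tyms, 0.77 for Cdc20 and 0.77 for Kif20a, through 0.32 for Mki67 and 0.07 for Mcm3, to -0.49 for Pcna and -0.55 for E2f1.

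Single libraries show how far fibroblast content and cell cycle RNA went together. Control bleomycin mice 1 to 4 had fibroblast scores of 8.78, 8.89, 8.00 and 8.35 and cell cycle scores of 5.38, 4.31, 4.71 and 5.05. CKO PBS mouse 3 (6.30 and 5.31) and control PBS mouse 3 (8.03 and 5.29) were high in both, and control PBS mouse 4 (0.33 and 2.88) was low in both. Other libraries did not follow. Control PBS mouse 1 (3.61 and 4.86), CKO PBS mouse 4 (1.47 and 4.51) and CKO bleomycin mouse 3 (3.96 and 5.21) had a cell cycle score above the median of all libraries (4.31) at a low or middling fibroblast score. CKO PBS mouse 2 (1.90 and 4.19) lay just under that median. CKO bleomycin mouse 2 (7.15 and 3.97) and CKO PBS mouse 1 (3.04 and 1.78) had less than others of like fibroblast score.

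The slope of each gene on a marker score was fitted across all 10481 genes with the group in the fit. It is 1 slope common to the 4 groups, taken from differences between mice of the same group. The fibroblast scores of control bleomycin mice spanned 0.89 units, against 4.83 to 7.70 in the other groups, so these mice weigh little in the fibroblast slope. On the fibroblast score, 0 of 43 members passed an adjusted p of 0.05 by edgeR's quasi-likelihood test, where 7.38% of all genes did, and 14 (32.6%) had an unadjusted p under 0.05, where 24.6% of all genes did. The slope was above 0 for 39 of 43, with a median of 0.21 log2 units per unit of score (all genes -0.01) and role medians from 0.08 for licensing to 0.32 for mitotic cyclins and kinases. Kif20a came nearest the threshold, at 0.36 (SE 0.10; adjusted p 0.0504). DESeq2 called 6 members in this fit (Aurka, Cdc20, Cenpa, Foxm1, Kif20a and Tyms), and limma voom called 2. The 7.38% of all genes holds for edgeR alone, so these 2 counts cannot be set against it. On the macrophage score the slope was below 0 for 41 of 43 members, with a median of -0.51, and 1 passed, against 9.58% of all genes. This was Tyms, at -0.62 (SE 0.16; adjusted p 0.0235), and 13 members (30.2%) had an unadjusted p under 0.05, a share near the 28.1% of all genes. Without control bleomycin mouse 1, whose macrophage score of 4.67 stood apart from the 7.83 to 8.19 of its group, 23 members passed on the macrophage score, in a fit where 3102 of 10297 genes did, and without control PBS mouse 4 or control bleomycin mouse 2 none did.

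With both scores in the fit, no member passed on either. The fibroblast slope stayed above 0 for 36 members (median 0.16), where 5.4% of all genes passed, and the macrophage slope had a median of -0.35, where 6.34% passed, with Tyms at -0.48 (SE 0.14; adjusted p 0.0647, edgeR's quasi-likelihood test). At an unadjusted p under 0.05 there were 5 members (11.6%) on the fibroblast score and 2 (4.65%) on the macrophage score, below the 19.8% and 23.5% of all genes. DESeq2 called Kif20a on the fibroblast score and Tyms on the macrophage score in this fit. The shares of all genes given above are edgeR's and are no background for these calls. Without the group term, 16 members passed on the fibroblast score, all upward, against 15.6% of all genes upward, and 19 passed on the macrophage score, all downward, against 17.3% of all genes downward. With both scores and no group term, 0 passed on the fibroblast score (9.05% of all genes) and 1, Tyms, on the macrophage score (14.3%). E2f1 and Pcna had slopes of the opposite sign to most members, -0.06 (SE 0.05) and -0.02 (SE 0.04) on the fibroblast score, and neither passed.

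**Figure D4:**
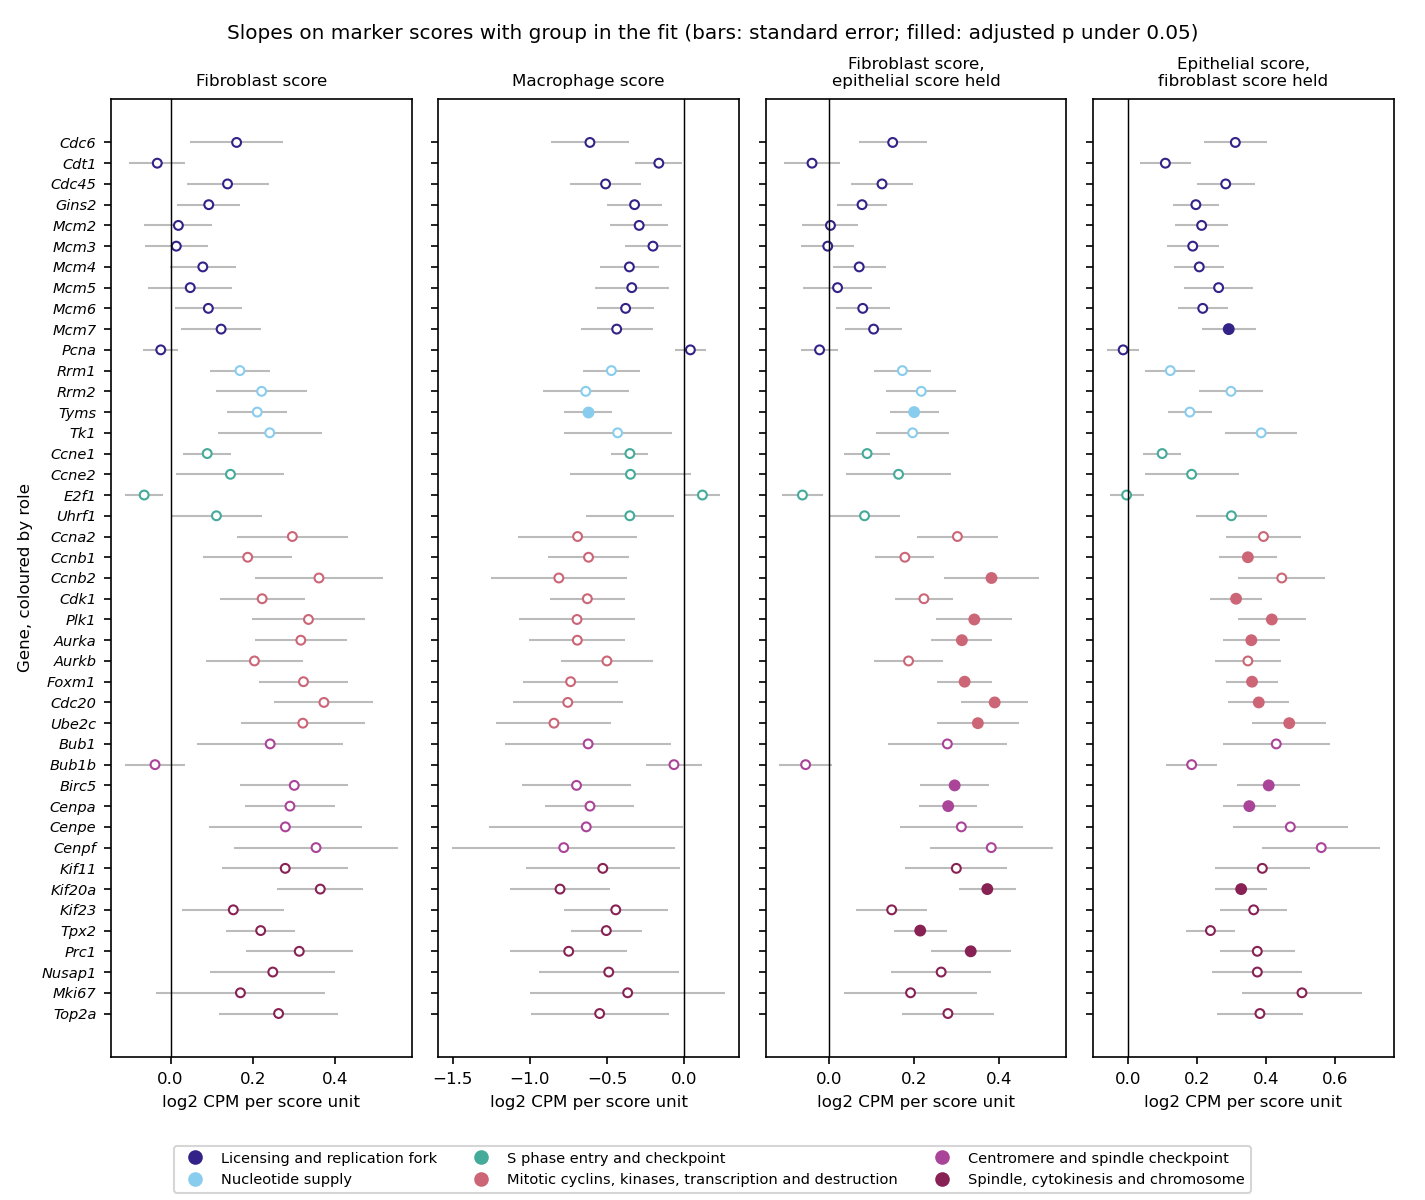
Slopes of the members (points, by role), in log2 units per unit of marker score, with the group in the fit. The panels show slopes on the fibroblast score alone and on the macrophage score alone. Further panels show the fibroblast slope with the epithelial score held and the epithelial slope with the fibroblast score held. The epithelial score is described below. Fibroblast and epithelial slopes lie mostly above 0 and macrophage slopes mostly below 0.

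Markers of epithelial cells also moved with the members, and the fits on them were chosen after this had been seen. The epithelial list had 9 genes, of which 7 were kept (Cdh1, Cldn18, Epcam, Krt18, Krt8, Sftpb and Sftpc), and Sftpa1 was at 0 in 3 libraries, Sftpc in 2 and Sftpb in 1. Its summed level was 118 to 1917 CPM in control PBS mice, 170 to 1057 CPM in those given bleomycin, 96.6 to 2261 CPM in CKO PBS mice and 27.0 to 1103 CPM in those given bleomycin. The epithelial score had an r of 0.60 with the cell cycle score (rho 0.66; 0.69 for deviations from the group means; 0.58 without the 2 farthest libraries; 0.93 and 0.51 in number series 11 and 12) and of -0.07 with the fibroblast score. The fibroblast score alone gave 31.3% of the variance of the cell cycle score over the 17 libraries in a linear fit, the macrophage score 35.1% and the epithelial score 36.5%. Fibroblast and epithelial scores together gave 72.8%, fibroblast and macrophage scores 41.3%, and all 3 scores 72.8%.

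Among the libraries that did not follow the fibroblast score, the epithelial score was 6.84 in control PBS mouse 1, 6.94 in CKO bleomycin mouse 3, the highest of all libraries, and 4.50, the median of all libraries, in CKO PBS mouse 4. It was -0.20 in CKO bleomycin mouse 2 and 1.49 in CKO PBS mouse 1, the 2 lowest. Libraries high in both the fibroblast and the cell cycle score differed in epithelial score. It was 6.28 in CKO PBS mouse 3, 6.06 in control PBS mouse 3 and 6.43 in control bleomycin mouse 1. In control bleomycin mice 3 and 4 it was 3.02 and 3.38, below the median of all libraries. CKO PBS mouse 2 was at 6.16. Of the mesothelial markers, Lrrn4 and Upk3b were each at 0 in 11 libraries and Wt1 in 9, whereas Krt19 and Msln, which epithelial and mesothelial cells both can express, were kept, with a summed level of all 5 mesothelial markers from 13.3 to 1006 CPM. The mean of Krt19 and Msln had an r of 0.85 with the epithelial score and 0.70 with the cell cycle score. Smooth muscle markers (5 of 6 kept), whose summed level was 465 to 506 CPM in control bleomycin mice and 1.47 to 320 CPM in the other groups, had an r of 0.62 with the cell cycle score, neutrophil markers (3 of 6 kept) -0.69, endothelial markers (8 of 8 kept) 0.06 and Cd2, the 1 gene kept of 8 lymphocyte markers, -0.26. The neutrophil score was highest (6.27) in CKO PBS mouse 1 and lowest (0.44) in control bleomycin mouse 1. These were also the libraries lowest and highest in cell cycle score. Of the neutrophil markers, Ly6g was at 0 in 11 libraries and S100a9 in 7. Of the 3 kept, Mmp8 reached 9615 CPM, S100a8 80.5 CPM and Cxcr2 18.2 CPM. The score can thus follow mainly 1 gene, and whether it measures neutrophil content was not tested. The part of all these cell types in the members' RNA was not tested beyond the slopes given next.

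**Figure D5:**
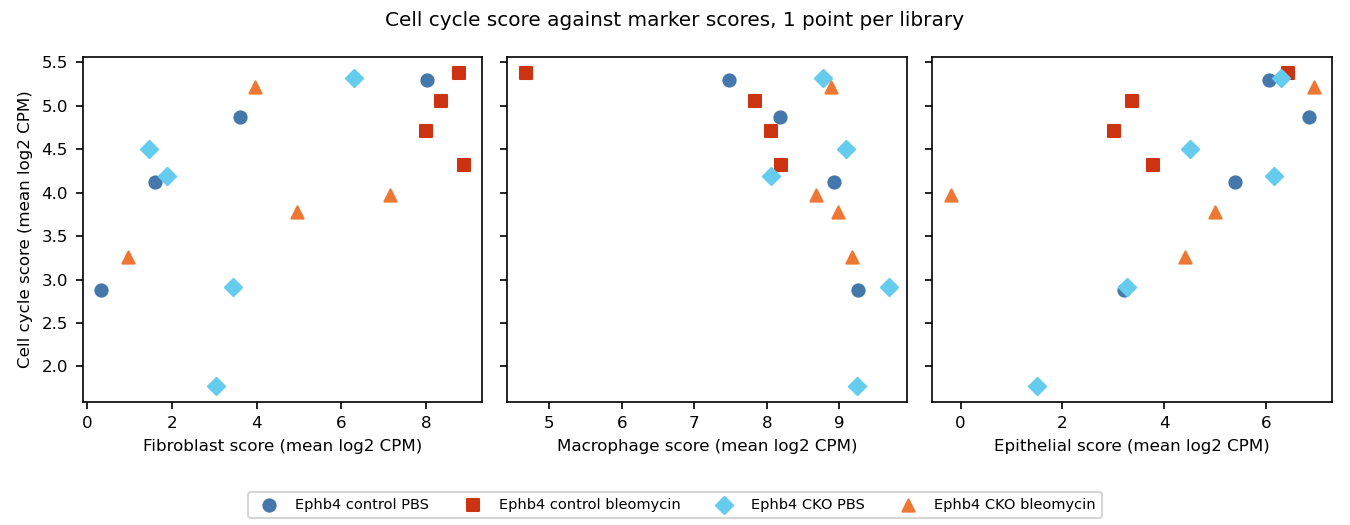
Cell cycle score (mean log2 CPM of 43 members, vertical axis) of each library against its fibroblast, macrophage and epithelial scores (mean log2 CPM of the markers kept, horizontal axes), coloured by group. The score goes up with the fibroblast and epithelial scores and down with the macrophage score (r of 0.56, 0.60 and -0.59, n = 17). On the fibroblast axis the control bleomycin mice lie together at the high end (8.00 to 8.89), and mice of the other groups are spread along the cloud.

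On the epithelial score alone, 0 of 43 members passed by edgeR's quasi-likelihood test (2.65% of all genes did), although 41 slopes were above 0 and 37 had an unadjusted p under 0.05, where 18.1% of all genes did. With the fibroblast score held, 11 passed, all upward, against 4.76% of all genes. At an unadjusted p under 0.05 there were 37 members, against 21.8% of all genes. Past the adjusted threshold were the mitotic regulators Aurka, Ccnb1, Cdc20, Cdk1, Foxm1, Plk1 and Ube2c. The rest of the 11 were the centromere genes Birc5 and Cenpa, the kinesin Kif20a, and Mcm7 of the helicase. Foxm1 had the smallest adjusted p, with a slope of 0.36 (SE 0.07; adjusted p 0.0181). In the same fit, with the epithelial score held, 12 members passed on the fibroblast score, all upward, against 10.6% of all genes. They were Aurka, Birc5, Ccnb2, Cdc20, Cenpa, Foxm1, Kif20a, Plk1, Prc1, Tpx2, Tyms and Ube2c, and Kif20a had a slope of 0.37 (SE 0.07; adjusted p 0.00301). The macrophage slope with the epithelial score held had a median of -0.31, and 0 members passed (6.64% of all genes), with Tyms nearest at -0.54 (SE 0.17; adjusted p 0.0869). On the score of Krt19 and Msln, 12 members passed, all upward, against 9.57% of all genes, among them Mki67 at 0.68 (SE 0.15; adjusted p 0.0157), Top2a at 0.49 (SE 0.14; adjusted p 0.0419) and Kif23, a motor of the central spindle, at 0.44 (SE 0.09; adjusted p 0.00982).

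These counts rested on few libraries. On the epithelial score alone, 34 members passed without CKO bleomycin mouse 2, the library with the lowest epithelial score (15.3% of all genes), and 0 passed without any 1 of the other 16. With the fibroblast score held, the count on the epithelial score was 28 without CKO bleomycin mouse 2 (8.85% of all genes) and 0 without CKO bleomycin mouse 3 (1.69%). The fibroblast count with the epithelial score held went from 2 without control PBS mouse 3 (2.86% of all genes) to 17 without CKO PBS mouse 4 (8.51%), and that on Krt19 and Msln from 1 without control PBS mouse 4 (3.54%) to 27 without CKO bleomycin mouse 2 (18.5%). The macrophage count with the epithelial score held reached 8 of 43 without control bleomycin mouse 1, a smaller share than the 24.1% of all genes. Without CKO bleomycin mouse 2 this macrophage slope turned over, with 40 of 43 members above 0, a median of 0.20 and none called (3.27% of all genes).

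Other genes of the cycle were counted in 3 further lists. The list of further S and M phase genes (57 of 60 kept) moved as the members did, with a median log2 fold change of 0.31 for bleomycin against PBS in control mice and -0.71 for CKO against control after bleomycin (50 of 57 lower), and 0 passed in any comparison by edgeR's quasi-likelihood test, with 0 and 1 at an unadjusted p under 0.05 in these 2. On the fibroblast score 54 of 57 slopes were above 0, and on the macrophage score 55 of 57 were below 0. The list of cyclins, kinases and pocket proteins of G1 (18 of 21 kept) varied little, with a median SD of 0.42, and had medians of -0.03 and -0.15 in the same comparisons, with none called and 2 and 3 at an unadjusted p under 0.05. The inhibitors and p53 targets (13 of 16 kept) had medians of 0.54 and -0.64, again with none called and 1 and 2 at an unadjusted p under 0.05. Of all genes tested, 14.3% and 20.2% had an unadjusted p under 0.05 in these 2 comparisons. The share of each of the 3 lists was below that of all genes in both.

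Values of single genes of these lists follow, with the slope on the score where a gene passed. The 2 marker scores had an r of -0.61 with each other, and no gene's slopes on them were compared. Gas1, a membrane protein named for growth arrest and expressed by fibroblasts, was 0.258, 0.0456, 34.4 and 0.0203 CPM and 69.8, 52.7, 13.1 and 32.1 CPM in control PBS and control bleomycin mice, which put the fibroblast-rich libraries highest, and had a fibroblast slope of 1.52 (SE 0.07; adjusted p 2.74e-08, edgeR's quasi-likelihood test). Ccnd3, cyclin D3, was 19.1, 25.2, 45.6 and 14.5 CPM and 58.2, 39.7, 35.9 and 42.2 CPM in the same mice, with a fibroblast slope of 0.17 (SE 0.04; adjusted p 0.0368). Cdk4, the kinase of the D cyclins, was 141, 101, 153 and 151 CPM and 291, 151, 167 and 164 CPM in the same mice, with a macrophage slope of -0.24 (SE 0.07; adjusted p 0.0353). Tfdp1, the partner of the E2F factors, was 58.7, 33.00, 60.5 and 26.8 CPM and 104, 59.4, 62.2 and 70.4 CPM in the same mice and 30.2 to 51.4 CPM in CKO mice, with a macrophage slope of -0.34 (SE 0.08; adjusted p 0.0148, edgeR's quasi-likelihood test). Cdkn2c, the inhibitor p18, was 5.21, 6.58, 17.4 and 1.85 CPM and 16.7, 20.8, 11.5 and 13.4 CPM in the same mice and 1.25 to 13.9 CPM in CKO mice, with a fibroblast slope of 0.34 (SE 0.09; adjusted p 0.0262). These 5 genes were the only ones of the 3 lists past the threshold on either score alone with the group in the fit. On the fibroblast score they were 1 of 18 (Ccnd3) and 2 of 13 (Gas1 and Cdkn2c), where 7.38% of all genes passed. On the macrophage score they were 2 of 18 (Cdk4 and Tfdp1), where 9.58% did, and 0 of 57 passed on either score. Counts of 1 or 2 genes are too small to be set apart from these shares. The groups of Cdk4 overlapped, and the highest library was again control bleomycin mouse 1. Ccnd1, cyclin D1, which serum induces in adherent cells, was 141, 48.4, 66.6 and 10.9 CPM and 71.9, 42.996, 107 and 108 CPM in control PBS and control bleomycin mice, and 12.9, 143, 73.3, 29.4 and 48.8 CPM and 58.8, 31.1, 109 and 17.7 CPM in CKO mice. Ccnd2, cyclin D2, and Cdk6 ranged from 41.4 to 218 CPM and from 34.5 to 128 CPM over all libraries. Cdkn1a, the p53-induced inhibitor p21, ranged from 14.9 to 72.4 CPM, with its highest value in CKO PBS mouse 1, the library with the least cell cycle RNA. Cdkn1c, the inhibitor p57, and Mybl2, the B-Myb factor that joins MuvB, were also under the level needed for testing. Cdkn1c was 39.1 CPM in CKO bleomycin mouse 2 and at most 1.98 CPM in the other libraries, and Mybl2 ranged from 0.642 to 14.3 CPM, with its highest value in control bleomycin mouse 1. Cdkn2a, the locus of the senescence inhibitor p16, was likewise untested, at 0.107 to 13.6 CPM. Its higher values were 7.29 and 13.6 CPM in control bleomycin mice 3 and 4, 6.61 CPM in CKO PBS mouse 1 and 5.34 CPM in CKO bleomycin mouse 2.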

How the data were processed

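Gene counts in the deposited table were made by the authors, who trimmed strand-specific reads with Cutadapt (1.18 in the submitters' processing notes; the paper's methods name another version), aligned them to GRCm38 with HISAT2 2.1.0 and assembled them with StringTie, whose script turns transcript coverage into whole-number counts per gene without normalization; reads shared by overlapping or near-identical genes may thus be split between them. Total counts were 66540022 to 120554468 per library. From these counts, TMM-normalized CPM and edgeR's quasi-likelihood test (edgeR 4.0.16, R 4.3.3) were computed here over all 17 libraries with 1 mean per group, for genes over 10 CPM in 2 or more libraries, with Benjamini-Hochberg adjustment over 10481 genes at 0.05. The common dispersion was 0.311. The paper also used a batch number, whose value for each library is not given in the sources used here. Marker and cell cycle scores are the mean log2 CPM (prior count of 2) of a list's genes kept, and slopes were fitted on them in edgeR with the group as a covariate. Each library is 1 mouse and mice were grouped by their labels; animal numbers recur between groups, and the labels do not say what they mark. The procedure was tested on simulated counts. Members, lists and tests were chosen with earlier results of these data known. Values in every library are given for 10 members fixed by name, for those with the smallest p, and for those whose groups did not overlap. Alternatives were DESeq2 1.42.0, voom (limma 3.58.1), RLE normalization, other filters, covariates and library sizes, and each mouse left out. Positions come from GENCODE M21, in which all 44 members had their identifier, and promoters from RefSeq on GRCm38.p6.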

Additional observations from a re-analysis of the deposited data

Results flagged for a closer look

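Of 136 groups of values examined for a library far from the others of its group, 3 were picked out, and chance picks out about 1 in 20 such groups. Ccne1, cyclin E1, had a log2 CPM of 2.60 in Ephb4 CKO PBS mouse 5, against 3.69 to 3.93 in the other 4 mice of the group. Cdk4, a kinase of G1, had a log2 CPM of 8.18 in Ephb4 control bleomycin mouse 1, against 7.24 to 7.38 in the other 3. The macrophage score of the same library was 4.67, against 7.83 to 8.19 in the other 3, and the slopes on that score are given without this mouse beside the results.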

How the results depend on the processing

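The counts of members past the threshold in the 5 comparisons of groups stayed at 0 in every alternative and with each mouse left out, except that DESeq2 called 1 member, Tyms, for CKO against control after bleomycin (adjusted p 0.0493). The median log2 fold changes kept within the spread between mice, apart from the block described below. Over the alternatives they were 0.27 to 0.71, -1.11 to -0.66, -0.55 to -0.36, 0.00 to 0.34 and -0.60 to -0.10 in the order of the report, and with each mouse left out 0.14 to 0.77, -1.31 to -0.50, -1.03 to 0.03, -0.44 to 0.59 and -0.88 to 0.23. The last 3 medians thus changed sign with 1 mouse left out. The third did so without control PBS mouse 3, the fourth without CKO bleomycin mouse 3 and the fifth without CKO PBS mouse 3. With the number series as a covariate, Bub1b was at 0.01 and not -0.72 for bleomycin against PBS in control mice, where all 4 bleomycin mice and 1 of 4 PBS mice are of series 12, so that series and treatment can hardly be told apart.

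The slopes moved more. On the fibroblast score, the count of members was 6 with DESeq2, 2 with voom, 1 with RLE normalization, with genes over 1 CPM, with library sizes without abundant genes or without the 3 libraries whose sex genes go against the label, 16 without the group term, 12 with the epithelial score in the fit (chosen after seeing the data), and 0 to 3 with each mouse left out (3 without CKO PBS mouse 1). On the macrophage score it was 10 with DESeq2, 5 with voom, 2 with labelled sex, 19 without the group term, 0 without those 3 libraries, with a score from summed CPM or with the epithelial score in the fit, and 0 to 23 with each mouse left out. With both scores it was 1 with DESeq2 (Kif20a) and 0 to 1 with each mouse left out for the fibroblast slope, and for the macrophage slope 1 (Tyms) with DESeq2, voom, number series, labelled sex or no group term and 0 to 1 with each mouse left out. The macrophage slope of Tyms passed in 25 of 29 settings (-1.10 to -0.50) and the fibroblast slope of Kif20a in 11 of 29 (0.30 to 0.43). The cause of these shifts was not tested. The share of all genes called also differed between fits, and a count of members without it shows no excess over other genes. For the fibroblast slope that share was 10.6% with the epithelial score in the fit and 15.6% upward without the group term. For the macrophage slope that share was 17.3% downward without the group term and 6.64% with the epithelial score in the fit. No share is given here for the DESeq2, voom, RLE, labelled sex and number series fits. A larger count in them is thus no result about the members. The r of the cell cycle score was 0.38 to 0.64 with the fibroblast score and -0.61 to -0.40 with the macrophage score over the alternatives. The groups compared share no full animal number, but 5 of the 8 sets of first digits of these numbers stand in more than 1 group. The labels do not say that they mark a litter or day, and of 13 pairs of libraries of different groups with the same first digits 6 had an r of deviations above 0.1 (-0.48 to 0.76), so a pairing was not established. With the first digits as a replicate block (chosen after seeing the data), no member or other gene passed in the 5 comparisons, whose medians were 0.70, -1.74, -1.12, 0.17 and -0.62. The count in this block was 0 on the fibroblast score (median slope -0.03), 22 on the macrophage score (7.26% of all genes), and with both scores 2 for the fibroblast slope (7.33%) and 34 for the macrophage slope (16.6%). Few residual degrees of freedom remain in that fit.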
